A study of Mus musculus with 4 samples.

Results

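AP-1 (activator protein 1) is a transcription factor made of pairs of leucine zipper proteins from the FOS and JUN families, and 8 of its genes were followed here: Fos, Fosb, Fosl1, Fosl2, Jun, Junb, Jund and Atf3. They were taken as every probe set of the array whose platform gene symbol is exactly one of these names, which gave 12 probe sets among 34945 with 1 gene symbol. The cells were mouse regulatory T (Treg) cells, the suppressive CD4+ lineage defined by the transcription factor Foxp3. Every sample consisted of T cells isolated as CD4+, YFP+ and Ly5.2+, taken 6 weeks after adoptive transfer, and the Cre construct HR-MMPCreGFP had been given to both groups, controls included. In the Foxp3-deleted group (Foxp3delta, 2 arrays) the Foxp3 gene was flanked by loxP sites that Cre can cut, and in the wild-type group (Foxp3+, 2 arrays) it was not. YFP reports exposure to Cre and not the loss of Foxp3 itself, and the labels do not say how many animals or cell preparations stand behind an array, so a p-value here reflects the scatter of these arrays alone, and that scatter may be technical.

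FOS proteins (Fos, Fosb, Fosl1, Fosl2) bind DNA as partners of JUN proteins, whereas JUN proteins (Jun, Junb, Jund) also pair among themselves. Fos, Jun and Atf3 belong to the immediate early or stress-induced genes, which are switched on within minutes of a stimulus without new protein synthesis. In T cells AP-1 acts beside NFAT downstream of the T cell receptor and costimulation, and Foxp3 is known to bind NFAT at sites where AP-1 would otherwise join it. Bulk arrays read the RNA of all cells in a sample, so a shift in the share of cells expressing a gene and a shift in RNA per cell cannot be told apart.

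Foxp3 itself read lower on both deleted arrays, and 0 of the FOS and JUN genes differed between the groups by a test that passed. Foxp3 had log2 intensities of 8.77 and 8.75 on the deleted arrays and 11.40 and 11.23 on the wild-type arrays, a difference of -2.55 (SE 0.27, limma adjusted p = 0.106). The position of that probe set relative to the excised exons is not stated. Across the array 13999 probe sets with 1 gene symbol had a mean log2 intensity of at least 4 and were tested with limma, of which 0 (0%) had an adjusted p under 0.05 and 1338 (9.56%) an unadjusted p under 0.05. Groups lay apart without overlap and by at least 1 on the log2 scale for 11.1% of these probe sets, 6.66% higher in deleted cells and 4.44% lower. The T cell markers Cd3d, Cd3e, Cd3g and Cd4 all lay above the filter, with summed intensities of 11425 and 10112 on the deleted arrays and 7727 and 7875 on the wild-type arrays. The log2 excess of the 3' over the 5' control probe set for Actb, a measure of RNA integrity and labelling, was 4.91 and 4.47 on the deleted arrays and 7.26 and 6.60 on the wild-type arrays, and for Gapdh it was 5.89 and 4.17 on the deleted and 7.24 and 7.08 on the wild-type arrays. That excess therefore differed between the groups, and its part in the values below was not tested.

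Of the 12 AP-1 probe sets 6 passed the filter, and they belong to Fos, Fosl2, Jun (with 2 probe sets), Junb and Jund. In 0 of these 6 did the groups lie apart without overlap, a pattern that 39.9% of all tested probe sets showed. Adjusted p lay between 0.669 and 0.994 in limma and 0 of the 6 had an unadjusted p under 0.05. Their median difference was -0.14 on the log2 scale, beside 0.0062 over all tested probe sets, with 2 higher and 4 lower means in deleted cells, beside 50.5% of all tested probe sets with a higher mean. With 2 arrays against 2, an exact permutation test of a single value cannot go below a two-sided p of 0.333. For Fos, Fosl2, Jun and Jund the 2 deleted arrays lay farther apart than the 2 wild-type arrays or the group means. Deleted replicate 1 was higher for the first 3, while for Jund it was lower, at a smaller distance (-0.45).

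**Figure D1:**
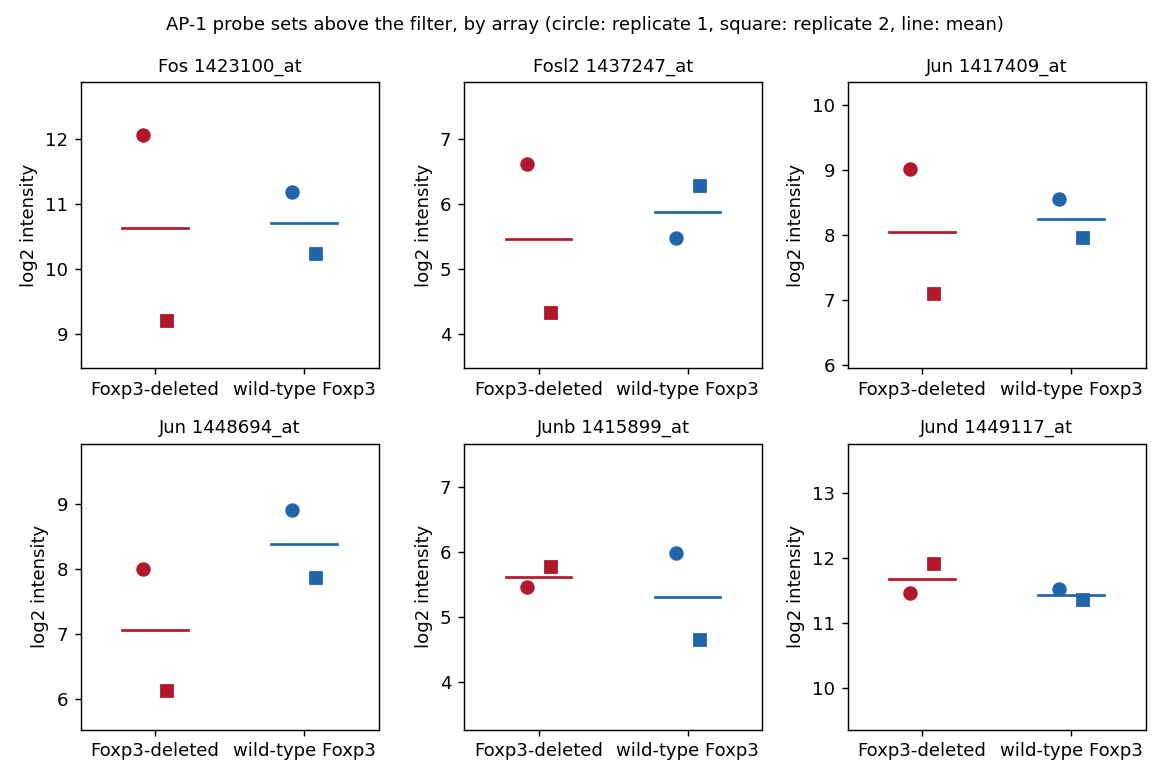
Log2 intensity (y axis) of the 6 AP-1 probe sets above the filter in the 2 Foxp3-deleted arrays (left, red) and the 2 wild-type arrays (right, blue), with circles for replicate 1, squares for replicate 2 and a line at each mean. Fos, Fosl2 and Jun 1417409_at have their highest and their lowest value in the 2 deleted arrays, and the groups overlap in every panel.

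The upstream sequences of Fos, Jun, Fosl2 and Junb are given because deleted replicate 1 exceeded deleted replicate 2 by at least 1 for the first 3 but not for Junb. Jund did not show this excess either, and its window is not printed. They are the 250 bases before the annotated start, 5' to 3' on the strand of the gene, from RefSeq on GRCm38.p6, where 7 of the 8 genes were matched. Capitals mark the core TGACG of the cyclic AMP response element (CRE), the site TGACATCA and the TATA box TATAAA, on either strand.
Fos (chr12:85473640-85473889, + strand): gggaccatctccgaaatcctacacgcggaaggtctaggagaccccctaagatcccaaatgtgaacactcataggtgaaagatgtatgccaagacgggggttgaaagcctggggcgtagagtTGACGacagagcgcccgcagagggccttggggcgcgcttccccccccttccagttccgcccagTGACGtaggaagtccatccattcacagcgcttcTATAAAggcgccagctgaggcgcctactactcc
Jun (chr4:95052223-95052472, - strand): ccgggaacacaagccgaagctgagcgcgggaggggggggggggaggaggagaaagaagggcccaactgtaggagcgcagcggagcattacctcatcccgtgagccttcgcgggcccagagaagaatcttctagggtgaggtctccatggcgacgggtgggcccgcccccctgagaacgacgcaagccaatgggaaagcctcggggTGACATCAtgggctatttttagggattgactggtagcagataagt
Fosl2 (chr5:32136222-32136471, + strand): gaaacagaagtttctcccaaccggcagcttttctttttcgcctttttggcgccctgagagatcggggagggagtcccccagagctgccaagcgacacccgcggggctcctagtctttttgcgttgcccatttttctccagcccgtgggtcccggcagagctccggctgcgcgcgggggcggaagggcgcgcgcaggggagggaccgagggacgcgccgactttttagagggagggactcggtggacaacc
Junb (chr8:84978749-84978998, - strand): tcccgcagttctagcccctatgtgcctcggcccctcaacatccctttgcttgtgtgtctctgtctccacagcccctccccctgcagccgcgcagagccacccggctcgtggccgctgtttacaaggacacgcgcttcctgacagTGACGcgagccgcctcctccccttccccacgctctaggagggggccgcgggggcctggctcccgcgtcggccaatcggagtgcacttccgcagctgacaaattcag
The core TGACG begins 66 and 129 bases before the start of Fos and 106 bases before that of Junb, and it lies in the windows of 4 of the 7 genes (Fos, Fosb, Junb and Atf3) and in 17.8% of all 32851 promoters of the table. The window of Jun holds TGACATCA 45 bases before the start, which 2.93% of promoters hold, and that of Fos holds TATAAA 33 bases before the start, which 12.4% hold. The consensus AP-1 site TGACTCA (4.46% of promoters), the full CRE TGACGTCA (1.55%), which contains that core, and the serum response element core known as the CArG box (1.47%) matched in 0 of the 7 windows. Sites of the NF-kappaB type, not marked in capitals, matched in 3 of the 7 windows (Fos, Fosb and Fosl2) and in 7.25% of promoters. The window of Jund held none of the motifs searched. These letters describe the windows only, and a site more than 250 bases before the start could not be found here. The core TGACG, TGACATCA and the TATA box were chosen after the sequences had been seen.

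Fos, the founding FOS gene, encodes c-Fos, and it was read by 1 probe set (1423100_at). It gave intensities of 4276 and 589 in deleted replicates 1 and 2, against 2332 and 1192 in wild-type replicates 1 and 2. One deleted array was thus the highest of all 4 and the other the lowest. On the log2 scale Fos averaged 10.63 ± 2.02 in deleted cells and 10.70 ± 0.68 in wild-type cells (SD, n = 2 each), a difference of -0.07 (SE 0.98, limma adjusted p = 0.994). The 95% interval ran from -2.58 to 2.44, which leaves room for a large difference in either direction. The 2 deleted arrays were 7.26-fold apart, and 0.193% of all tested probe sets lay at least that far apart between them. The wild-type arrays were 1.96-fold apart. The difference for Fos was 1.36 without deleted replicate 2, -1.50 without deleted replicate 1 and 0.41 without wild-type replicate 1.

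Fosl2 encodes Fra-2, a FOS protein without the transactivation domain of c-Fos. Its probe set 1437247_at had log2 intensities of 6.60 and 4.32 on the deleted arrays and 5.47 and 6.27 on the wild-type arrays. As for Fos, deleted replicate 1 was the highest array and deleted replicate 2 the lowest, while the order of the wild-type arrays was the opposite of that for Fos. The difference was -0.41 (SE 0.83, limma adjusted p = 0.916), and it was 0.73 without deleted replicate 2. The other Fosl2 probe set lay near the floor at 2.28 to 2.49 on every array.

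Jun encodes c-Jun, the partner with which c-Fos forms the classic AP-1 dimer, and it had 2 probe sets. The first, 1417409_at, gave log2 intensities of 9.02 and 7.09 on the deleted arrays and 8.56 and 7.95 on the wild-type arrays. Its arrays fell in the same order as those of Fos, with deleted replicate 1 highest and deleted replicate 2 lowest. The second, 1448694_at, gave 8.01 and 6.14 on the deleted arrays and 8.92 and 7.87 on the wild-type arrays. Here wild-type replicate 1 was the highest array, and deleted replicate 2 was again the lowest. The differences were -0.20 (SE 0.71, limma adjusted p = 0.955) and -1.33 (SE 0.75, limma adjusted p = 0.669), with 95% intervals from -2.02 to 1.62 and from -3.24 to 0.59. The 2 probe sets of 1 gene therefore shared their sign but not their size. The sign of the first turned to 0.76 without deleted replicate 2 and to 0.10 without wild-type replicate 1, while that of the second stayed negative, between -2.26 and -0.39, with any 1 array left out. The deleted arrays were 3.81-fold and 3.65-fold apart on these probe sets, a distance reached by 1.51% and 1.76% of all tested probe sets.

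Junb encodes JunB, a JUN protein that works with BATF in effector T cells. Its log2 intensities were 5.47 and 5.77 on the deleted arrays and 5.99 and 4.65 on the wild-type arrays. For this gene it was the wild-type arrays that lay farther apart (2.52-fold, against 1.23-fold between the deleted arrays), and wild-type replicate 1 was highest. The difference was 0.30 (SE 0.53, limma adjusted p = 0.901), or -0.36 without wild-type replicate 2.

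Jund encodes JunD, a JUN protein that many resting cells express without a stimulus. Its probe set 1449117_at read 11.46 and 11.91 on the deleted arrays and 11.53 and 11.35 on the wild-type arrays. The arrays differed little, and deleted replicate 2, lowest for Fos, Fosl2 and Jun, was the highest here. The difference was 0.25 (SE 0.26, limma adjusted p = 0.813), with the narrowest 95% interval of the 6 probe sets, from -0.42 to 0.91. Leaving out deleted replicate 2 gave 0.022, and leaving out deleted replicate 1 gave 0.47.

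**Figure D2:**
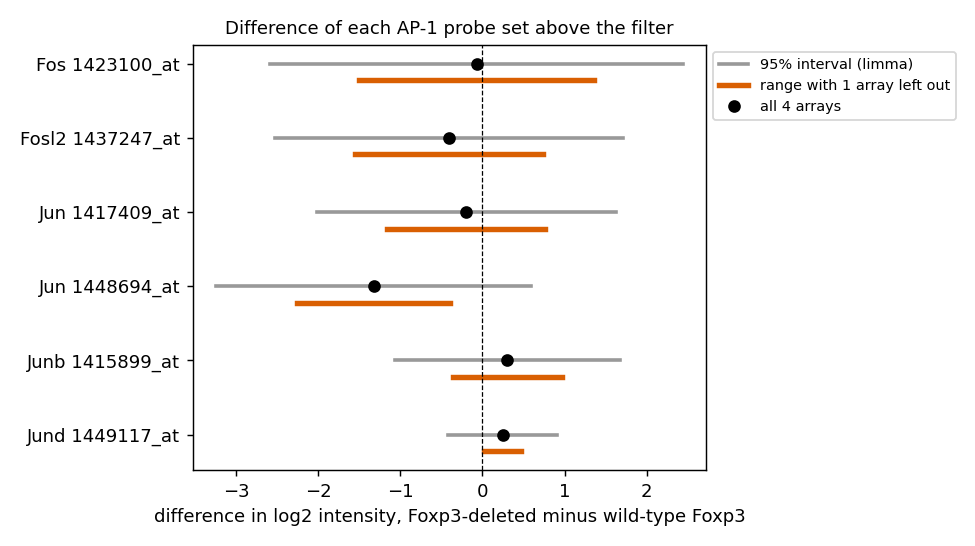
Difference in log2 intensity, Foxp3-deleted minus wild-type (x axis), for the 6 AP-1 probe sets above the filter, with the 95% interval from limma in grey and the range of the difference with any 1 array left out in orange. All 6 intervals include 0, from -2.58 to 2.44 for Fos and from -0.42 to 0.91 for Jund.

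The remaining 6 probe sets lay below the filter and were not tested. They were the only probe sets of Fosb, which encodes FosB, of Fosl1, which encodes Fra-1, and of Atf3, a stress-induced leucine zipper factor related to both families, together with the second probe sets of Fosl2 and Jund. Their log2 intensities ranged from 2.11 to 2.96 over all 4 arrays, near the floor that the background correction leaves, and their differences ranged from -0.22 to -0.02. Atf3, the nearest to the filter, read 2.55 and 2.51 on the deleted arrays and 2.96 and 2.54 on the wild-type arrays. Values this close to the floor do not show whether the genes were silent. Junb, with a mean of 5.47, was the dimmest probe set that passed.

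A like distance between the 2 deleted arrays was seen for some other stress and early response genes, but not for most of those listed. On 4 of the 6 AP-1 probe sets, those of Fos, Fosl2 and Jun, deleted replicate 1 exceeded deleted replicate 2 by at least 1 on the log2 scale, which held for 8.95% of all tested probe sets. Of 21 tested genes on a list of immediate early and handling-stress genes, deleted replicate 1 was higher by at least 1 for 4 genes and lower by at least 1 for 0, beside 9.28% of all tested genes with deleted replicate 1 higher. Hspa1a, an inducible HSP70 heat shock gene, had log2 intensities of 9.89 and 4.87 on the deleted arrays and 7.66 and 5.98 on the wild-type arrays. Its near-identical neighbour Hspa1b, whose transcripts the probes may not separate, had 12.69 and 8.92 on the deleted arrays and 10.32 and 9.91 on the wild-type arrays. Both thus ran in the order of Fos, with deleted replicate 1 highest and deleted replicate 2 lowest. Klf4, a zinc finger factor of the same early response, had 7.74 and 5.70 on the deleted arrays and 7.47 and 7.17 on the wild-type arrays. Dusp1, which encodes a phosphatase that switches MAP kinases off, had 9.78 and 8.01 on the deleted arrays and 10.10 and 10.10 on the wild-type arrays. Hspa1a, Hspa1b, Klf4 and Klf6 had the array order of Fos, as did 2.99% of all tested probe sets. Other members of the list did not follow it. By their brightest probe sets, Btg2, Egr1, Egr2, Egr3, Hspa8, Nfkbia, Nr4a1, Nr4a2 and Socs3 read higher on deleted replicate 2 than on deleted replicate 1. For Btg2 and Hspa8 that gap was only 0.08 and 0.07. Some other probe sets of Btg2, Hspa8, Nfkbia and Nr4a2 had deleted replicate 1 higher, by up to 0.89, 1.37, 0.68 and 1.77. Those of Egr2 and Socs3 did not. The remaining tested genes of the list read higher on deleted replicate 1, most of them by less than 1. Egr1, an early zinc finger factor, read 8.72 and 9.31 on the deleted arrays and 8.84 and 9.13 on the wild-type arrays. The genes named in this paragraph other than the AP-1 genes were singled out after their values had been seen.

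**Figure D3:**
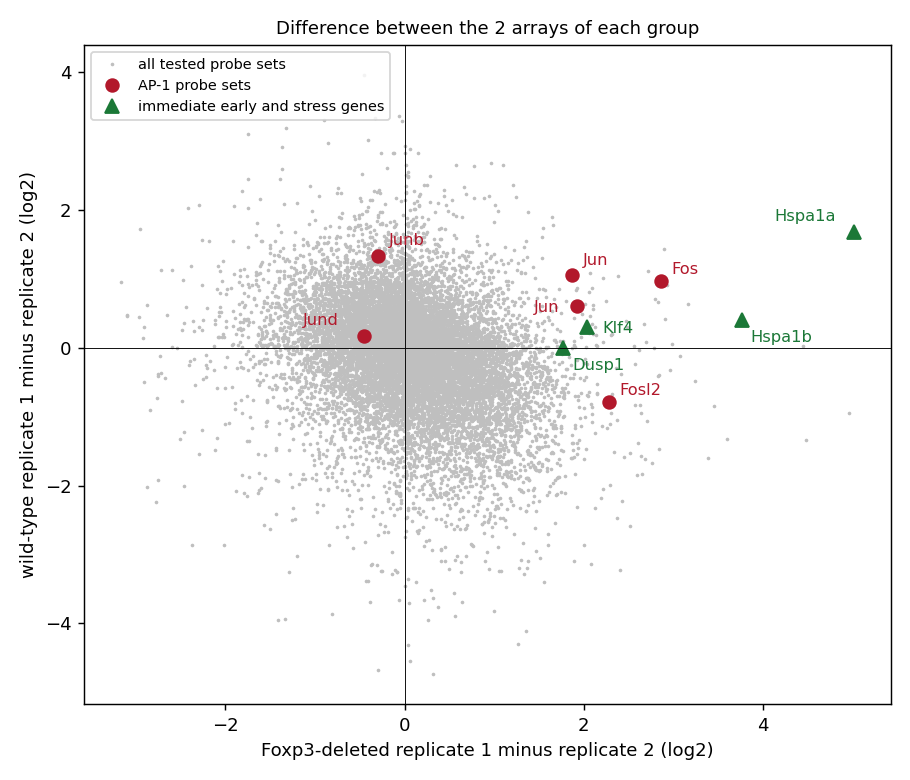
Replicate 1 minus replicate 2 in log2 intensity within the Foxp3-deleted group (x axis) and within the wild-type group (y axis), for all 13999 tested probe sets (grey), the 6 AP-1 probe sets (red circles) and 4 immediate early or stress genes (green triangles). Fos, Fosl2 and both Jun probe sets lie at 1.87 or more on the x axis, with Hspa1a at 5.02, whereas Junb and Jund lie left of 0. The 4 triangles are the list genes with deleted replicate 1 higher by at least 1, of 21 tested. Their place on the x axis therefore follows from that choice, and the other tested genes of the list are not marked.

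The genes whose pattern over the 4 arrays lay closest to that of Fos, by Euclidean distance between centred log2 values, were Slc40a1 (distance 0.329), Ly86 (0.550), Clec4a3 (0.573), Rgs2 (0.669) and Stap1 (0.692), beside a median distance of 2.23 over 8628 tested genes. Slc40a1, which encodes the iron exporter ferroportin, had log2 intensities of 8.40 and 5.51 on the deleted arrays and 7.73 and 6.30 on the wild-type arrays. Rgs2, which encodes a brake on G protein signalling, had 9.90 and 7.18 on the deleted arrays and 9.83 and 8.71 on the wild-type arrays. Both repeat the order of Fos, with deleted replicate 1 far above deleted replicate 2. Ly86 and Clec4a3 read 3.41 and 2.94 on deleted replicate 2, below the filter value of 4, so their distances rest partly on dim values. Markers of myeloid and dendritic cells also moved between arrays. The summed intensity of the 6 measured markers was 1788 and 588.2 on the deleted arrays and 608.8 and 487.7 on the wild-type arrays. Deleted replicate 1 thus stood highest there too, but wild-type replicate 2 stood lowest, unlike for Fos. Of these markers Lyz2, the lysozyme of macrophages, read 9.69 and 6.30 on the deleted arrays and 5.65 and 7.24 on the wild-type arrays. Csf1r, the receptor for macrophage colony-stimulating factor, read 9.85 and 8.93 on the deleted arrays and 9.06 and 8.30 on the wild-type arrays. Itgam, Itgax and Cd14, which also define these cells, stayed between 1.98 and 2.84 on every array. Cd68, a lysosomal protein gene of macrophages and the last of the 6, read 4.34 and 2.75 on the deleted arrays and 2.67 and 2.64 on the wild-type arrays, so it too was highest on deleted replicate 1. Of 2 measured markers of NK cells, Klra8 read 7.57 and 5.51 on the deleted arrays and 6.47 and 5.66 on the wild-type arrays, and Ncr1 stayed near the floor at 2.34 to 2.39. The 4 measured B cell markers summed to 39.2 and 52.8 on the deleted arrays and 124 and 114 on the wild-type arrays. Cd79b carried that gap, at 4.04 and 4.94 on the deleted arrays and 6.58 and 6.49 on the wild-type arrays, while the other 3 lay lower and differed by -0.35 to -0.05. Both markers of CD8 T cells lay below the filter. The part of other cells in the values of Fos, Fosl2 and Jun was not tested.

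Around Jund the nearest patterns were those of Ddx39b (distance 0.039), Nf2 (0.043), Phrf1 (0.045), Tnrc18 (0.051) and Cela1 (0.055), beside a median of 0.864 over the tested genes. Distances were small because Jund varied little, and Ddx39b, which encodes an RNA helicase, read 11.31 and 11.79 on the deleted arrays and 11.41 and 11.19 on the wild-type arrays.

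Partners and regulators of AP-1 were described from lists, each gene by its probe set with the highest mean, beside a median difference of -0.02 over 8629 tested genes. Of these genes 48.1% had a higher mean in deleted cells, and 5.57% were higher and 4.93% lower by at least 1 without overlap between the groups. On each list 0 genes passed an adjusted p of 0.05 in limma.

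Leucine zipper partners had 14 tested genes of 18 measured, 4 with a higher and 10 with a lower mean, and a median difference of -0.32. Past 1 without overlap were 2 higher genes and 1 lower gene. Crem, the cAMP response element modulator, whose isoforms activate or repress, had intensities of 31.3 and 16.1 on the deleted arrays and 138 and 146 on the wild-type arrays. Both deleted arrays lay below both wild-type arrays, and the log2 difference was -2.66 (SE 0.45, limma adjusted p = 0.186). Its other probe set above the filter differed by -1.46. Creb1, which encodes the activator CREB that binds the same element, had 9.79 and 10.50 on the deleted arrays and 8.61 and 8.71 on the wild-type arrays. Its difference was 1.49 (SE 0.36, limma adjusted p = 0.332), but over its 4 tested probe sets values went from -0.44 to 1.49. Mafg, a small MAF protein gene, differed by 1.17 (SE 0.42, limma adjusted p = 0.480), with its other probe set at -0.54. Jdp2, which encodes a repressor that pairs with JUN proteins, differed by -0.81 (SE 0.40, limma adjusted p = 0.623). Batf, the partner of JunB in T cells, read 7.65 and 7.45 on the deleted arrays and 7.97 and 8.10 on the wild-type arrays, a difference of -0.49 (limma adjusted p = 0.712).

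The MAP kinase route that leads to AP-1 had 15 tested genes of 16 measured, 8 higher and 7 lower, and a median of 0.02. Mapk14, the stress kinase p38 alpha, was the 1 gene past 1 without overlap, with 9.63 and 9.24 on the deleted arrays and 7.93 and 8.80 on the wild-type arrays (difference 1.07, SE 0.42, limma adjusted p = 0.529). Rps6ka3, a kinase downstream of ERK, differed by 0.92, Map3k4 by -0.85 and Map3k8, a kinase upstream of ERK, by -0.83, with limma adjusted p between 0.516 and 0.653. The other tested probe set of Rps6ka3 read 0.029. With 1 array left out these differences shrank to 0.54 for Rps6ka3 (without deleted replicate 1), -0.35 for Map3k4 (without wild-type replicate 1) and -0.34 for Map3k8 (without deleted replicate 2), and that of Mapk14 to 0.63. The median of the list was -0.14 without deleted replicate 1.

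A list of regulators known to drive Fos, made of serum response factor, its cofactors, Creb1 again and the CREB coactivator gene Crtc2, had 7 tested genes of 8 measured. Taking each gene's brightest probe set, all 7 had a higher mean, with a median of 0.51. This rested on that choice, since the median was 0.053 with the mean over probe sets, and other tested probe sets of Creb1, Elk3 and Crtc2 read as low as -0.44, -0.17 and -0.22. Without deleted replicate 2 the median was 0.21. Mrtfa, an actin-regulated cofactor of that factor, differed by 1.01 (SE 0.62, limma adjusted p = 0.689), Elk4, a ternary complex factor, by 0.60 and Srf itself by 0.51. The second probe sets of Elk4 and Srf read -0.38 and -0.0029. With 1 array left out the differences ranged from 0.38 to 1.65 for Mrtfa, from 0.33 to 0.87 for Elk4 and from 0.21 to 0.81 for Srf.

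The NFAT family, some of whose members share composite sites with AP-1 in T cells, had 4 tested genes, Nfat5 included. Of these 2 were higher and 2 lower, with a median of 0.24, or 0.0083 without deleted replicate 2. Nfat5, which responds to osmotic stress, had 5.05 and 5.20 on the deleted arrays and 6.22 and 6.07 on the wild-type arrays (difference -1.02, SE 0.33, limma adjusted p = 0.438). Nfatc3 differed by 0.62, Nfatc2 by 0.58 and Nfatc1 by -0.10. The other tested probe sets of Nfat5 read -0.39 and -0.24, and that of Nfatc3 read 1.72. Over its 4 tested probe sets Nfatc1 went from -0.10 to 0.54.

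Genes known to be driven by AP-1 had 8 tested members of 16 measured, 5 higher and 3 lower, with a median of 0.48. The sign of that median changed with the settings, since it was -0.999 with a filter at 6, -0.016 without a filter and -0.047 without deleted replicate 1, against 1.01 without deleted replicate 2. Past 1 without overlap were 2 higher and 2 lower genes. Ifng, the cytokine interferon gamma, had intensities of 953 and 1024 on the deleted arrays and 209 and 150.4 on the wild-type arrays (log2 difference 2.48, SE 0.34, limma adjusted p = 0.151). Il2 had log2 intensities of 6.26 and 4.75 on the deleted arrays and 4.40 and 3.55 on the wild-type arrays (difference 1.53, SE 0.62, limma adjusted p = 0.542). Il2ra, the high-affinity chain of the receptor for interleukin-2, had 5.92 and 4.26 on the deleted arrays and 9.47 and 9.36 on the wild-type arrays (difference -4.33, SE 0.62, limma adjusted p = 0.155), and it is also a Treg marker. Mmp9, a matrix protease, was the other lower gene, at -1.32. Fasl, the death ligand, differed by 1.87 (SE 1.01, limma adjusted p = 0.658), and its wild-type arrays read 3.57 and 6.12. On this list too deleted replicate 1 exceeded deleted replicate 2 by at least 1 for 5 of 8 genes (Cd69, Csf2, Fasl, Il2 and Il2ra), beside 9.28% of all tested genes. The wild-type arrays of the list were scattered as well, with 3 of the 8 genes at least 1 apart between them (Fasl, Mmp9 and Tnf), beside 16.8% of all tested genes. The difference for Il2 was 0.78 without deleted replicate 1. That for Fasl was 0.59 without wild-type replicate 1.

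**Figure D4:**
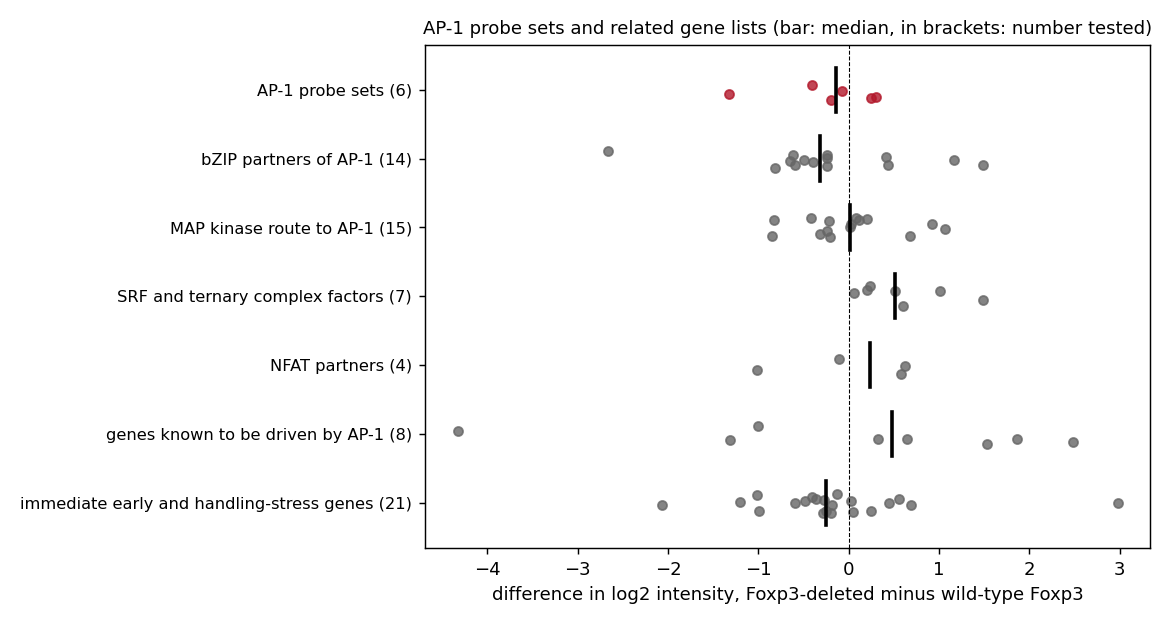
Difference in log2 intensity, Foxp3-deleted minus wild-type (x axis), for the 6 AP-1 probe sets (red) and the tested genes of 6 related lists (grey), with a black bar at each median. The AP-1 probe sets lie between -1.33 and 0.30, and list medians lie between -0.32 and 0.51.

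Immediate early and handling-stress genes, compared between the groups, had 7 higher and 14 lower means among 21 tested genes and a median of -0.25. The sign of that median rested on the deleted arrays and on the summary, with 0.037 without deleted replicate 2, -0.50 without deleted replicate 1 and 0.024 with the mean over probe sets. Past 1 without overlap were 1 higher gene and 3 lower genes. Btg2, an antiproliferative early gene, read 10.01 and 10.09 on the deleted arrays and 6.84 and 7.31 on the wild-type arrays (difference 2.98, SE 0.34, limma adjusted p = 0.113), with its other probe set at 0.45. Gadd45b, which activates the p38 and JNK route, read 7.64 and 7.55 on the deleted arrays and 9.74 and 9.58 on the wild-type arrays (difference -2.07, SE 0.31, limma adjusted p = 0.160), with its other probe set at -0.36. Nr4a1, an orphan nuclear receptor induced through the T cell receptor, differed by -1.02 (SE 0.48, limma adjusted p = 0.610), and Dusp1 by -1.20, or -0.32 without deleted replicate 2. On these probe sets of Btg2 and Gadd45b the deleted replicates lay within 0.09 of each other on the log2 scale. On the other Btg2 probe set deleted replicate 1 read 7.60 and deleted replicate 2 read 6.71, in the same direction as for Fos, and on the other Gadd45b probe set they read 7.39 and 7.61.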

How the data were processed

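RNA was measured on 4 single-colour arrays, 1 per sample. The deposited values are linear intensities, which the authors computed with GCRMA, version 1.1.3 according to the submitters' processing notes. No further settings are stated. GCRMA removes a probe-dependent background, which leaves dim probe sets close to a floor. All values were put on the log2 scale as they stood. Of 45101 probe sets, 34945 with 1 gene symbol were kept, and those with several (932) or none (9160) were left out with 64 controls. Those whose log2 intensity averaged 4 or more over all arrays (13999) were fitted in limma 3.58.1 (R 4.3.3; lmFit, eBayes with trend, 2 residual and 3.06 prior degrees of freedom). Tests were two-sided and adjusted by Benjamini-Hochberg over these probe sets, with a threshold of 0.05. The procedure was run on simulated data, where the only condition set was a small mean error of the difference. That run is not used here as a measure of power or of false calls. The number of arrays limits the precision. Groups came from the sample titles. The numbers r1 and r2 are not stated to pair samples. Named were Foxp3, all members, up to 4 genes per list with the largest difference and the 5 nearest patterns to Fos and Jund, the FOS and JUN genes with the highest means. Batf, Nfe2l2, Elk3, Crtc2, Mmp9, Cd69, Csf2 and Tnf fall outside that rule and were named after their values had been seen. Members and lists were chosen with earlier results of these data known. Alternatives covered filter, normalization, floor, gene summary, trend, replicate block and each array left out.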

Additional observations from a re-analysis of the deposited data

How the results depend on the processing

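For the 6 tested AP-1 probe sets, 0 passed an adjusted p of 0.05 under any alternative (lowest adjusted p 0.474 with all 4 arrays). Filters, blocks and the trend cannot move the difference of a probe set between 2 balanced groups. Taking the brightest probe set of each gene kept rows of the main fit. The floor at 4 lay below every value of these 6 probe sets (lowest 4.32), so it could move none. The mean over probe sets could move only Fosl2, Jun and Jund. Of 50 values over all settings with 4 arrays, 9 moved, with quantile normalization or that mean, and 0 turned sign. The other values were fixed in advance, so these counts do not measure stability. With 1 array left out the sign turned in 6 of 24 values (lowest adjusted p 0.502): ranges were -1.50 to 1.36 for Fos, -1.55 to 0.73 for Fosl2, -1.16 to 0.76 for Jun 1417409_at, -0.36 to 0.97 for Junb and, without a turn, 0.022 to 0.47 for Jund. Ranges that crossed 0 for other genes were -1.95 to 3.07 (Hspa1a), -1.19 to 2.57 (Hspa1b), -1.62 to 0.43 (Klf4), -0.51 to 1.39 (Nfe2l2), -0.28 to 0.072 (Nfatc1), -1.51 to 1.39 (Slc40a1), -0.95 to 1.84 (Ly86), -1.49 to 0.99 (Clec4a3), -2.09 to 0.64 (Rgs2), -1.23 to 0.70 (Stap1), -0.00095 to 0.47 (Nf2) and -0.017 to 0.43 (Tnrc18). Signs also turned with values below 4 raised to 4 for Clec4a3 (0.28) and with the mean over probe sets for Klf4 (0.078), Nfatc1 (0.17), Nfe2l2 (-0.18) and Slc40a1 (0.080). Over all features the count past an adjusted p of 0.05 was 18 with a filter at 6 and 39 with 1 mean per gene. The count past 1 without overlap, 1554, was 857 with a filter at 6, 906 with 1 probe set per gene, 528 with 1 mean per gene (fewer features were tested in each) and 1698 to 3096 with 1 array left out. The NFAT median was -0.016 without a filter, 0.58 with a filter at 6 and 0.67 with the mean over probe sets, where the zipper partners had -0.14 and the serum response list 0.053. The median of AP-1-driven genes was -0.999 with a filter at 6 and -0.016 without one, and that of the immediate early genes 0.024 with the mean over probe sets. With 1 array left out the medians ranged from -0.50 to -0.37 for zipper partners, 0.21 to 0.75 for the serum response list, 0.0083 to 0.36 for NFAT, -0.14 to 0.018 for the MAP kinase route, -0.047 to 1.01 for AP-1-driven genes and -0.50 to 0.037 for the immediate early genes, so the last 3 crossed 0. The causes of these shifts were not tested beyond the numbers of genes given.

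With the replicate number as a block, 0 probe sets passed. In this balanced layout the block leaves each difference as it was, -0.07 for Fos, and changes only its error. Deviations of samples with the same number correlated at -0.274 over tested probe sets. With the numbers crossed, an alternative added after seeing the data, 0 passed too. Quantile normalization moved the median difference of all tested probe sets to -0.03, beside 0.0062 as deposited.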
